A study of Homo sapiens with 24 samples.

Results

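EBF1, IRX2, C5orf38, RANBP3L, PITX1, HAPLN1, PDZD2, FOXF1 and MAF are 9 human genes, most of them regulators of embryonic development, which were chosen by their strong rise in RPE1 cells with extra copies of chromosomes 5 and 12. The rise that selected them is the fold change of the authors' own comparison, whose values are not used here, so it is neither shown nor tested. The 9 genes were found by name in the deposited tables, which hold 16742 different gene names. What is described is the mean level of each gene in each pair of an aneuploid line and its parental line.

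The mRNA of 4 aneuploid lines and of their 4 parental lines was sequenced from total RNA, with 3 libraries of each line and 24 in all. RPE1 is a retinal pigment epithelial line immortalized with hTERT, and HCT116 is a near-diploid colon carcinoma line. RPE1 5/3 12/3 is trisomic for chromosome 5, which was introduced by microcell transfer, and for chromosome 12, which was gained spontaneously, and it was set against RPE1. RPE1* 21/3, trisomic for chromosome 21, was set against RPE1*, where the asterisk marks lines that carry histone H2B tagged with GFP. HCT116 5/4, tetrasomic for chromosome 5, was obtained from another laboratory together with the HCT116 parent it was set against, and HCT116* 8/3 c7, a clone trisomic for chromosome 8, was set against HCT116*, made from an HCT116 stock of a cell bank. Each aneuploid line stands for its karyotype by a single derived population, so effects of the extra chromosome and of the derivation cannot be told apart.

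The level is the mean over the 6 libraries of a pair, of read counts divided by a size factor for each library, as the authors computed it. It has no spread and no n of its own, the total counts of single libraries are unknown, and no difference could be tested. It bounds each line all the same. Because both lines of a pair gave 3 libraries, the higher line lies at or above this mean and neither line can exceed 2 times the mean. The 4 tables were normalized separately, and over the 14088 genes with a row in both RPE1 tables the median ratio of the RPE1 5/3 12/3 table to the RPE1* 21/3 table was 1.21.

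The markers of the tissue of origin were mixed for the RPE1 lines. OTX2 and MITF, transcription factors of pigment epithelium, had means of 715 and 1439 in the RPE1 5/3 12/3 pair and of 419 and 1124 in the RPE1* 21/3 pair. Of the 8 pigment epithelium markers 7 had a row in each RPE1 table and 5 in each HCT116 table, and TYRP1 had none in any. RPE65, the retinoid isomerase that defines mature pigment epithelium, was low in both RPE1 pairs (10.4 and 4.58) and higher in both HCT116 pairs (287 and 194). The melanosome gene PMEL, with means of 17.8 and 14.8 in the RPE1 pairs against 97.1 and 137 in the HCT116 pairs, and SERPINF1, with 28.8 and 16.4 against 52.0 and 55.5, were also higher in the HCT116 pairs. MITF, at most 67.4 in the HCT116 pairs, and BEST1, with 42.7 and 41.3 in the RPE1 pairs and 2.62 in the HCT116* 8/3 c7 pair, were higher in the RPE1 pairs than in either HCT116 pair, and OTX2 and RLBP1 had no row in the HCT116 tables. The epithelial adhesion gene EPCAM had means of 4192 and 5683 in the HCT116 pairs and of 4.77 in the RPE1 5/3 12/3 pair. Of the 7 colon epithelium markers, 4 and 5 had a row in the HCT116 5/4 and HCT116* 8/3 c7 tables, 1 in the RPE1 5/3 12/3 table and 0 in the RPE1* 21/3 table. Of the 8 mesenchymal markers, 7 had a row in the RPE1 5/3 12/3 table and 8 in the RPE1* 21/3 table. The HCT116 tables had 7 and 5. Of all 16742 gene names, 14510, 14292, 15148 and 15610 had a row in these 4 tables, in this order. VIM, the intermediate filament gene, had means of 175391 and 110087 in the RPE1 pairs and 481 and 106 in the HCT116 pairs. Where listed, FN1, CDH2, COL1A1, SPARC and THY1 were also higher in the RPE1 pairs, COL1A1 with 3699 and 3479 against 690 and 848. COL1A2 had 4.39 and 8.78 in the RPE1 pairs and no row in the HCT116 tables. COL5A1 had no row in the RPE1 5/3 12/3 table, 10.3 in the RPE1* 21/3 pair and 7.12 and 5.42 in the HCT116 pairs.

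As background, the transcription factors among these genes act in the development of tissues that the cultured lines do not form. EBF1 is a transcription factor of early B cells and of fat and stromal precursors, IRX2 is an Iroquois homeobox factor, and PITX1 is a homeobox factor of the pituitary and the hindlimb. FOXF1 is a forkhead factor of the mesenchyme around gut and lung, and MAF is a basic leucine zipper factor of lens, cartilage and immune cells. C5orf38 is the transcript divergent from IRX2, RANBP3L is a Ran-binding nuclear export factor that acts on the SMADs of BMP signalling, HAPLN1 is the link protein that ties proteoglycans to hyaluronan in cartilage, and PDZD2 is a large protein with many PDZ domains.

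By position, 7 of the genes lie on chromosome 5, one of the chromosomes gained in RPE1 5/3 12/3, and the other 2 lie on chromosome 16, which was not gained. On GRCh37, the same build as the authors' hg19, IRX2 runs from 2745959 to 2751791 on the minus strand of chromosome 5 and C5orf38 from 2752245 to 2755511 on the plus strand, head to head. The others on chromosome 5 lie far apart. PDZD2, on the plus strand, has its lowest coordinate at 31639238. RANBP3L, HAPLN1, PITX1 and EBF1 are on the minus strand, where the lowest coordinate is the end of the gene. It is 36247015 for RANBP3L, 82933624 for HAPLN1, 134363424 for PITX1 and 158122928 for EBF1. On chromosome 16 the lowest coordinate is 79619740 for MAF, on the minus strand, and 86544133 for FOXF1, on the plus strand. No exon of another gene overlapped the exons of 7 members. Exons of an antisense lncRNA shared 293 bases with PITX1 and an antisense microRNA gene shared 8 bases with PDZD2, and since no strand option is named for the counting, reads in these stretches could not be assigned to a strand.

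The start regions of the members differed in base composition. In the RefSeq table of promoter windows on GRCh38.p14, which reach from 250 bases before to 50 bases after the start, 7 of the 9 genes were matched, and FOXF1 and PDZD2 were not. CpG dinucleotides numbered 34 in the windows of IRX2 and C5orf38, 35 in that of PITX1, 16 in MAF, 8 in EBF1, 6 in HAPLN1 and 1 in RANBP3L, against a median of 14 over 35116 windows. The stretch between the starts of IRX2 and C5orf38 is shown because both genes share it, and the 217 bases before the start of RANBP3L are shown beside it as the member poorest in CpG. Capitals mark each CpG. The first stretch, chr5:2751677-2751893 on the plus strand, holds 24 CpG and the other, chr5:36301903-36302119 on the minus strand, holds 1.
IRX2 and C5orf38: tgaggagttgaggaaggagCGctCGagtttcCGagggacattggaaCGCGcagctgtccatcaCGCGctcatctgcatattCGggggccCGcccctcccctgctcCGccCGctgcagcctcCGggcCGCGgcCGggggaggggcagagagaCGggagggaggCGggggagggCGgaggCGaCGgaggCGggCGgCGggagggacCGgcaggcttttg
RANBP3L: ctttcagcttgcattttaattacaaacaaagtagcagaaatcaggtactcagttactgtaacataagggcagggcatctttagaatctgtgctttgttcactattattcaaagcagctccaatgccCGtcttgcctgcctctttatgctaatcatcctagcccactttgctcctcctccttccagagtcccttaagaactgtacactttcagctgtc
The letters TATAAA, searched on both strands, occurred in the windows of RANBP3L and MAF and in 11.5% of all windows. A match says only that these letters are present.

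In the RPE1 5/3 12/3 pair all 9 genes had a row, with means from 53.4 to 578. Among the transcription factors, PITX1 had a mean of 578, FOXF1 of 302, MAF of 149, EBF1 of 63.5 and IRX2 of 55.8. RANBP3L had a mean of 315, the matrix gene HAPLN1 of 65.8, PDZD2 of 57.5 and C5orf38 of 53.4. The divergent neighbours IRX2 and C5orf38 thus stood within a few counts of each other. These means limit what either line of the pair can hold, to at most 1157 for PITX1 and at most 107 for C5orf38. They come from the same comparison that selected the genes and are a description only.

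Set against each other per kilobase of exon, the members spanned a wide range within this pair. PITX1 stood highest with a mean of 168 per kb, above FOXF1 with 85.7 and RANBP3L with 64.5. C5orf38 followed with 27.7, then MAF, and then IRX2 with 16.4 per kb. HAPLN1 with 10.6, EBF1 with 10.0 and PDZD2 with 3.61 per kb were the lowest. Of the 13749 genes of this table that could be given a length, 64.5% had a lower mean per kb than PITX1, 40.6% a lower one than RANBP3L and 9.32% a lower one than PDZD2. PITX1 was the one member above the middle of the table. Which neighbours in this order differ cannot be said without values of single libraries.

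**Figure D1:**
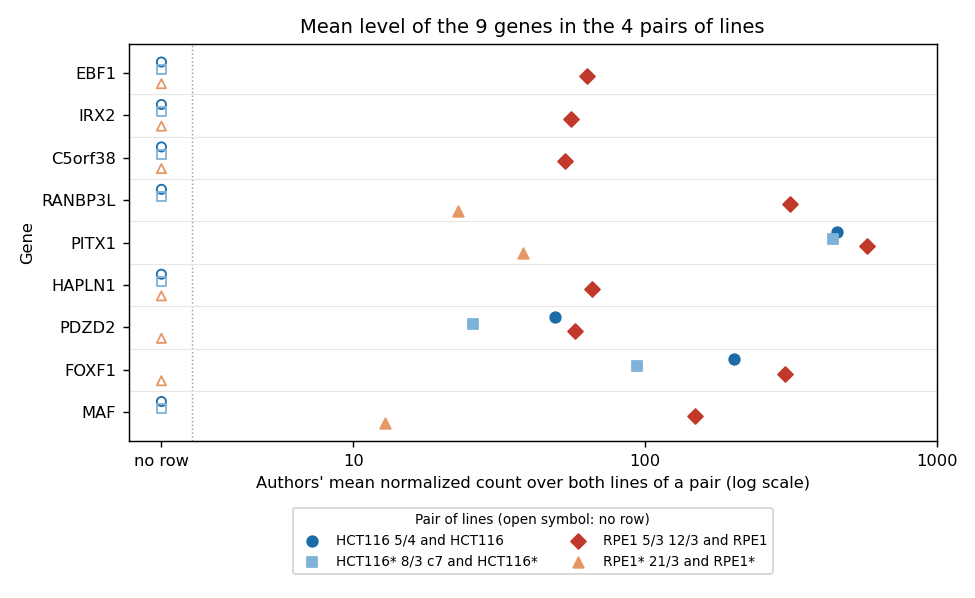
Mean normalized count of each gene (rows) in the 4 pairs of lines, on a log axis, with 1 point for each pair and no error bars because the values are the authors' means over 6 libraries. Open symbols left of the dotted line mark genes without a row in that table. All 9 genes have a point for the RPE1 5/3 12/3 pair, and 3 of them have one in each of the other pairs.

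The same genes stood much lower, where they had a value, in the RPE1* 21/3 pair. PITX1 had a mean of 38.3 there, RANBP3L of 22.8 and MAF of 12.8. Neither RPE1* nor RPE1* 21/3 can therefore exceed 76.5 for PITX1, 45.6 for RANBP3L or 25.6 for MAF, on the scale of that table. Per kilobase of exon, 17.7% of the genes of that table lay below PITX1, 11.0% below RANBP3L and 5.20% below MAF. The higher line of the RPE1 5/3 12/3 pair was then at least 7.56 times as high for PITX1, 6.91 times for RANBP3L and 5.81 times for MAF as either H2B-GFP line. Divided by the median ratio of all shared genes, to put the tables on one scale, these limits were 6.26, 5.72 and 4.81. They cover only the members with a row in both RPE1 tables. Because the members were chosen by their rise in the RPE1 5/3 12/3 pair, these limits are no independent result.

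As ratios of the means of the 2 RPE1 tables, PITX1 was 15.1-fold higher in the RPE1 5/3 12/3 pair, RANBP3L 13.8-fold and MAF 11.6-fold. They took places 7, 10 and 14 among the 14088 genes with a row in both tables. A ratio of at least 10, a limit set after the values were seen, was reached by 14 genes or 0.0994% of the 14088, and 3 of these are members. Among the other 11 were MGP (36.4-fold), a matrix protein that inhibits calcification, and GATA3 (35.1-fold), a zinc finger transcription factor, both named after their values were seen. Since the members were chosen in one of the tables that enter the ratio, these counts are no independent result. With the ratios divided by the median ratio, MAF came to 9.62 and PITX1 and RANBP3L were among the 12 genes still above 10.

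RPE1 and RPE1* differ by the H2B-GFP transgene. The ratio of the means does not say which of the 4 RPE1 lines moved, and the part of the parental lines in it was not tested.

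**Figure D2:**
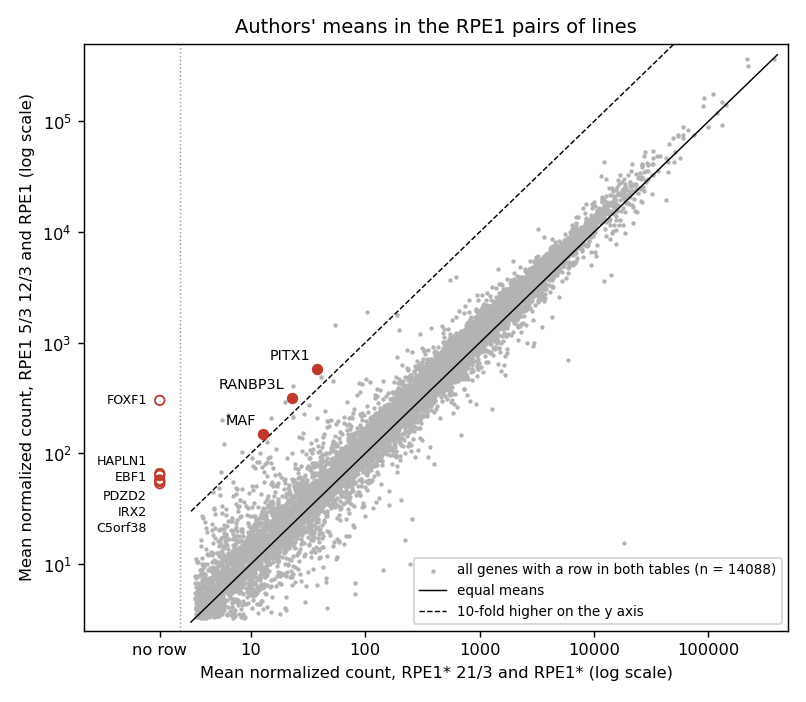
Mean normalized count of every gene in the RPE1 5/3 12/3 pair (y axis) against the RPE1* 21/3 pair (x axis), both on log axes, with the 14088 shared genes in grey and the members in red. PITX1, RANBP3L and MAF lie above the dashed line of a 10-fold ratio, and the 6 members without a row in the RPE1* 21/3 table are open circles left of the dotted line.

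EBF1, IRX2, C5orf38, HAPLN1, PDZD2 and FOXF1 had no row in the RPE1* 21/3 table. Among 11557 genes whose mean reached 50 in the RPE1 5/3 12/3 pair, 16 or 0.138% had no row there, and 6 of the 16 were members. The limit of 50 was set after the values were seen. Since the members reached it in the pair by whose rise they were chosen, this count is no independent result. A missing row is not a measured low level. The table lists genes down to a mean of 3.25, with 1191 of them under 10, yet the other 10 of the 16 include DYNC1H1, the heavy chain of cytoplasmic dynein, which had a mean of 21380 in the RPE1 5/3 12/3 pair. The level of the 6 members in RPE1* and RPE1* 21/3 is therefore not known from the tables.

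HCT116 5/4 carries 4 copies of chromosome 5, but its values are pooled with those of its parental line. The HCT116 pairs also differ in HCT116 stock, in H2B-GFP and in chromosome 8, so effects of these and of chromosome 5 cannot be told apart. PITX1 was at a like level in both HCT116 pairs, with a mean of 455 in the HCT116 5/4 pair and 442 in the HCT116* 8/3 c7 pair, a ratio of 1.03. PDZD2, also on chromosome 5, had means of 49.2 and 25.8, a ratio of 1.91. FOXF1, which lies on a chromosome gained in neither line, had means of 202 and 93.9, a ratio of 2.15. The median ratio was 1.33 over 612 genes of chromosome 5 and 0.957 over all 14923 genes with a row in both tables. PITX1 thus lay below the median of its chromosome and PDZD2 above it, and 3.22% of all genes had a higher ratio than FOXF1. Per kilobase of exon, 58.5% and 58.2% of the genes of the HCT116 tables lay below PITX1, 38.2% and 27.8% below FOXF1 and 7.90% and 6.27% below PDZD2. For PITX1 and PDZD2 the bounds do not show a line of one pair above both lines of the other. For FOXF1 the higher line of the HCT116 5/4 pair was at least 1.07 times as high as either HCT116 line with H2B-GFP, on the deposited scale.

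EBF1, IRX2, C5orf38, RANBP3L, HAPLN1 and MAF had no row in either HCT116 table. Among the same 11557 genes, 364 or 3.15% had no row in either, 6 members included. On chromosome 5 alone, 23 of 557 such genes (4.13%) had none in the HCT116 5/4 table. Of these 23, 5 were members, namely EBF1, IRX2, C5orf38, RANBP3L and HAPLN1. The limit on the mean by which such genes were taken was set after the values were seen. All members reached this limit in the pair by whose rise they were chosen, so neither count is an independent result. PITX1, PDZD2 and FOXF1 are the members with a value in both cell types. Divided by the median ratio of 0.926 over 13484 shared genes, their means in the RPE1 5/3 12/3 pair were 1.37, 1.26 and 1.62 times those in the HCT116 5/4 pair.

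The genes around PITX1, RANBP3L and MAF had lower ratios than these members themselves. Since the members were chosen by their rise in a pair that enters the ratio, this difference is no independent result. For each member, the 5 nearest genes on each side with a row in both RPE1 tables were taken. Around PITX1 these 10 genes had a median ratio of 1.56 between the RPE1 tables and reached 2.83 at TGFBI. Around RANBP3L the ratios ran from 0.798 to 1.77, the highest at NIPBL, the cohesin loader, and around MAF the median was 1.25 with a highest value of 1.63. The flanks of EBF1, HAPLN1, PDZD2 and of the IRX2 and C5orf38 pair had medians of 1.37, 1.41, 1.47 and 1.44, and those of FOXF1 one of 1.26, while these 6 members have no ratio of their own. For comparison, the median ratio was 1.48 over the 631 genes of chromosome 5, 1.19 over the 602 genes of chromosome 16 and 1.19 over 11453 genes outside the chromosomes gained in any of the lines. No flanking gene reached a ratio of 10. Only 0.0994% of the 14088 genes with both rows did, so this does not set the flanking genes apart.

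**Figure D3:**
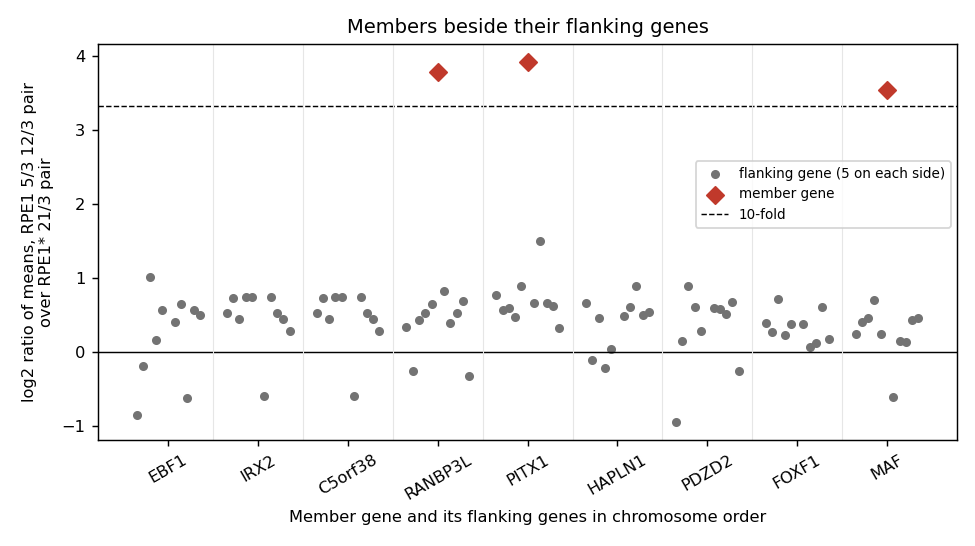
The log2 ratio of the mean in the RPE1 5/3 12/3 pair to that in the RPE1* 21/3 pair, for the 5 nearest genes on each side of every member (grey points, in chromosome order) and for the members with both rows (red diamonds). The red diamonds of RANBP3L, PITX1 and MAF lie above the dashed line of a 10-fold ratio, and every flanking gene lies below it, the highest at 2.83-fold.

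The relatives of the members in their gene families give a further setting. Of the 23 relatives, 12 had a row in both RPE1 tables. Their ratios ran from 0.680 for HAPLN3 to 1.67 for the Iroquois gene IRX3, with a median of 1.06, and 0 of them reached 10. Only 0.0994% of the 14088 shared genes did, so this count does not set the relatives apart. The members were chosen by their rise and the relatives were not, so the contrast between them is no independent result. The forkhead genes FOXF2 and FOXC2 were close between the RPE1 pairs, with means of 254 and 252 and of 753 and 714, and had no row in the HCT116 tables. Within the MAF family, MAFF, MAFG and MAFK had rows in all 4 tables, and MAFG, a small MAF partner without an activation domain, ranged from 1437 to 1541. RANBP3, the ubiquitous relative of RANBP3L, ranged from 1176 to 1409 over the 4 pairs.

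Different members of a family were listed in the HCT116 and RPE1 tables. EBF2, EBF3 and EBF4 had means of 123, 35.2 and 325 in the HCT116 5/4 pair and 88.5, 17.4 and 226 in the HCT116* 8/3 c7 pair, and no row in either RPE1 table. EBF1 was listed in the RPE1 5/3 12/3 table alone. IRX4 had means of 250 and 230 in the HCT116 pairs and no row in the RPE1 tables, while IRX3 and IRX5 were listed in all 4. HAPLN3 had means of 255 and 222 in the HCT116 pairs and of 11.2 and 16.5 in the RPE1 pairs. In the RPE1 5/3 12/3 pair HAPLN1 stood above it per kilobase, with 10.6 against 3.21 per kb.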

How the data were processed

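Per the labels and the study's methods, the authors removed adapters with cutadapt, mapped reads to hg19 with TopHat2 2.0.10 keeping 1 location per read, counted exon reads of RefSeq genes with featureCounts 1.4.3 and ran DESeq2 (version not given in the sources used here). The deposited signal used here averages, over the 6 libraries of a pair, the counts that the authors scaled by size factors. The other 5 columns of each table hold the authors' fold change, standard error, statistic, p-value and adjusted p-value and were not used. The design foresaw a count test, and none was made because values of single libraries were not analysed here. Members and gene lists were chosen with earlier results of these data known, and the named genes are the members, their families and the markers. Genes were placed, where a symbol lay on a single chromosome, by symbol or RefSeq synonym in GENCODE on GRCh37 (94.3% to 94.9% per table). Levels between genes were divided by the joint length of all GENCODE exons of a gene. The authors counted reads over RefSeq exons, so counts and lengths come from different gene models. The limits within a pair hold by arithmetic, while those between pairs also depend on how the separately normalized tables are scaled. Simulated libraries of known fold and equal depth gave back the ratios of means that were built into them, which checks the calculation only. They do not cover the separate normalization of the tables. Python 3.11.15, numpy 2.4.6, pandas 2.3.3 and matplotlib 3.10.9 were used.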

Additional observations from a re-analysis of the deposited data

How the results depend on the processing

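No paired analysis was possible because the values are means over both lines of a pair, which also leaves no replicate to omit, no normalization of single libraries to replace and no other test to run. Rescaling whole tables was possible, and with ratios divided by the median ratio 12 genes stayed at least 10-fold higher in the comparison of the RPE1 tables. The number of genes at least 10-fold higher in the RPE1 5/3 12/3 table than in the RPE1* 21/3 table was 14, and it became 9 with a mean of at least 10 in both tables, 23 at 8-fold and 61 at 5-fold, settings added after seeing the data. PITX1, RANBP3L and MAF were among the genes counted in each of these, and MAF was not once ratios were divided by the median ratio. The percentile of a gene moved by over 10 points in 4 of 18 cases when means were not divided by exon length, for PITX1 in the RPE1 5/3 12/3 pair (54.2) and for PDZD2 in its 3 tables (18.2 to 21.5), whose exons sum to 15922 bases. It did so in 0 of 18 cases when genes with a mean under 10 were left out. No value carries a spread, so what depth limits could not be computed.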
